A study of Mus musculus with 6 samples.

Results

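The dual-specificity MAPK phosphatases are the 10 genes Dusp1, Dusp2, Dusp4, Dusp5, Dusp6, Dusp7, Dusp8, Dusp10, Dusp14 and Dusp16, taken by symbol from the 22706 genes of the deposited table. Each symbol was found once, so 10 of 10 members are described. Their RNA was measured in 6 RNA-seq libraries of freshly sorted muscle stem cells (MuSCs, the cells that regenerate skeletal muscle), with 2 libraries in each of 3 groups. The control group was wild type, and the labels give C57BL/6 as the strain of the libraries. The mdx group carried the Dmd mdx mutation, which removes functional dystrophin and models Duchenne muscular dystrophy. The group labelled Sirt6mKO/mdx carried the mdx mutation together with floxed Sirt6, whose exons 4 to 6 were deleted by a constitutive Cre under the Pax7 promoter, so the deletion covered the whole muscle lineage and not MuSCs alone. SIRT6 is a histone deacetylase. The labels name no treatment, and they state neither age nor sex nor whether animals were pooled. The methods describe 2 biological replicates, but nothing in the labels says that the libraries of a group came from separate animals, so p-values measure the spread between these libraries.

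MAP kinases (ERK, JNK and p38) are switched on by phosphorylation of a threonine and a nearby tyrosine in their activation loop. Dual-specificity MAPK phosphatases remove both phosphates and thereby switch the kinases off. Several of their genes are transcribed in response to the kinases they restrain, so they act as inducible negative feedback, and their short-lived mRNAs rise quickly when tissue is stressed or dissociated. Dusp1, Dusp2, Dusp4 and Dusp5 encode nuclear, inducible enzymes. Dusp6 and Dusp7 encode cytoplasmic enzymes that prefer ERK. Dusp8, Dusp10 and Dusp16 encode enzymes that prefer JNK and p38. Dusp14 encodes a small atypical enzyme that lacks the kinase-binding domain of the others. In MuSCs, p38 and ERK activity accompanies the exit from quiescence.

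The promoters of Dusp1, Dusp8, Dusp5 and Dusp6 are shown. The first 3 genes had the largest changes among the members in both comparisons with mdx, and the groups of Dusp6 overlapped. Sequences are from RefSeq on GRCm38.p6, which held the promoters of 9 of 10 members, without Dusp4. They run 5′ to 3′ along the gene and cover up to 250 bases before its RefSeq start, stopping where the GENCODE annotation places an exon of the gene. Capitals mark the cAMP response element TGACGTCA, its shorter core TGACG (which lies within it), the serum response element (CArG box) and the AP-1 element TGANTCA, each searched on both strands. Dusp1 is drawn from chr17:26508520-26508722 (minus strand), Dusp8 from chr7:142095285-142095534 (minus strand), Dusp5 from chr19:53528895-53529108 (plus strand) and Dusp6 from chr10:99262981-99263230 (plus strand). The Dusp1 and Dusp8 stretches lie inside the outermost GENCODE span of their genes but in no exon.
Dusp1: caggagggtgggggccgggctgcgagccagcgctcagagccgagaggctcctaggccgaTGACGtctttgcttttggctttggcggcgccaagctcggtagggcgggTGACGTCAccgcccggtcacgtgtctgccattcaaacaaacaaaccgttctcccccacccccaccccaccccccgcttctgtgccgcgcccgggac
Dusp8: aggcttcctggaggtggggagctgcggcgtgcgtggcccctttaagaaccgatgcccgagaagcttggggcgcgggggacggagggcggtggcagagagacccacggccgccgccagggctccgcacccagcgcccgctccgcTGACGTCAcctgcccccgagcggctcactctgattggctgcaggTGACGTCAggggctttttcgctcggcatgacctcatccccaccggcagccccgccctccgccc
Dusp5: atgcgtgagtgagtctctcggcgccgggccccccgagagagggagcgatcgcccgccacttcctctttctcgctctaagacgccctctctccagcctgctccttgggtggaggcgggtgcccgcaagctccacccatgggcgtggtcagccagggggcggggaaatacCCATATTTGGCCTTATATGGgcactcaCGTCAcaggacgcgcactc
Dusp6: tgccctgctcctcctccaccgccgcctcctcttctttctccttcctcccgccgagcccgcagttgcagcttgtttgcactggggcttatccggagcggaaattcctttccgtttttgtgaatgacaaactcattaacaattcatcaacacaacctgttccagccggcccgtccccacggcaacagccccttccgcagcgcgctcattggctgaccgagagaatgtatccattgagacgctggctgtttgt

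The Dusp8 promoter held 2 complete cAMP response elements, 107 and 63 bases before the start, and the Dusp1 promoter held 1, 143 bases before the start, with another TGACG core at 191 bases. The complete element stood in 2 of 9 member promoters. It stood in 1.55% of all 32851 promoters and in 2.47% of the 13482 promoters of tested genes, of which 7 held it 2 or more times. The Dusp5 promoter held 2 serum response elements that adjoin each other, at 82 and 72 bases before the start, and a TGACG core at 55 bases. A serum response element stood in 1 of 9 member promoters and in 1.19% of promoters of tested genes. The shorter core stood in 4 of 9 member promoters (Dusp1, Dusp5, Dusp8 and Dusp16) against 25.5% of promoters of tested genes, and the AP-1 element in 0 of 9 against 4.55%. Neither Dusp6 nor Dusp2, Dusp7, Dusp10 and Dusp14 held any of these letters in the window searched. For Dusp14, only 27 of the 250 bases searched lie before the first base that GENCODE places in an exon of the gene. The Dusp10 window lies inside the GENCODE span of its gene. These matches are descriptions of sequence. Of the 310 tested genes with the complete cAMP response element, 12.9% were called lower and 6.5% higher in mdx than in control, where all tested genes gave 7.34% and 6.89%. In the Sirt6mKO/mdx-labelled libraries against mdx 7.7% were called higher and 2.6% lower, where all tested genes gave 5.62% and 2.54%. Of 151 tested genes with a serum response element, 15.2% were called lower and 9.3% higher in mdx, and 10.6% higher and 2.6% lower in the Sirt6mKO/mdx-labelled libraries against mdx. Of 582 with an AP-1 element these shares were 10.1% and 7.9%, then 6.7% and 3.8%. Of 3140 with the shorter core they were 9.0% and 5.4%, then 6.4% and 2.4%. The 7 tested genes with 2 or more complete cAMP response elements, Dusp8 among them, had 2 called lower and 1 higher in mdx, then 1 called higher and 0 lower.

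All values below are normalized read counts, that is, read counts per gene that the authors divided by the size factor of the library. Libraries held roughly 4397632 to 9743941 reads, and the 10 most abundant genes took 11.7% to 32.6% of the summed values of a library. Sirt6 was at 41 and 32 in control, then 33 and 40 in mdx, then 37 and 30 in the Sirt6mKO/mdx-labelled libraries, so its values overlapped between all groups and showed no clear loss where it is labelled deleted. Reads outside exons 4 to 6 still count toward these values, and reads over those exons were not examined apart. By genotyping PCR, the paper reports highly efficient Sirt6 deletion in MuSCs with this Cre. The 8 MuSC markers examined (Pax7, Myf5, Myod1, Itga7, Cd34, Cdh15, Sdc4 and Vcam1) were above 0 in every library, and Pax7, which defines these cells, ranged from 2167 to 3236. Of these 8 markers, 1 was called, Sdc4, a syndecan on the surface of MuSCs. It had 7692 and 6224 in control, compared with 1100 and 1049 in mdx, then 2753 and 2822 under the Sirt6mKO/mdx label, and it was called lower in mdx than in control (-2.69), higher in the Sirt6mKO/mdx-labelled libraries than in mdx (1.37) and lower there than in control (-1.31). Its part in the Dusp results was not tested. Xist, which is expressed from the inactive X chromosome of females, had values of 16772 and 12950 in control and between 7 and 34 in the other 4. The Y-linked gene Ddx3y was at 3 and 8 in control and between 1024 and 1767 in the others. The study describes male mice, so the control libraries went against that description, and in every comparison with control the genotype and these sex-linked levels cannot be told apart. All 10 Dusp genes lie on autosomes.

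Dusp1, whose product acts on p38, JNK and ERK in the nucleus, was the most abundant member in every library. Per kilobase of exon, its level was 1479.01 and 938.69 in control, then 247.36 and 181.21 in mdx, then 1784.96 and 1163.39 in the Sirt6mKO/mdx-labelled libraries. It made up between 41.8% and 75.9% of the summed level per kilobase of the 10 members, with the lowest shares in the mdx libraries. The GENCODE exons of Dusp1 include a distal exon outside the gene span of the deposited table, so its level per kilobase is understated. Averaged over the libraries, Dusp1 stood at the 97.8th percentile of tested genes by level per kilobase, Dusp10 at the 90.4th and Dusp6 at the 82.2nd. Dusp2 (26.2nd), Dusp7 (28th) and Dusp14 (34.2nd) were the rarest members.

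The order of the other members changed between groups. In control the order by mean level per kilobase after Dusp1 was Dusp10 (150.39), Dusp8 (92.09), Dusp6 (75.19), Dusp16 (72.78), Dusp5 (47.72), Dusp4 (34.85), Dusp14 (23.39), Dusp2 (11.73) and Dusp7 (9.68). The ranges of the neighbours Dusp6 and Dusp16, of Dusp5 and Dusp4, and of Dusp2 and Dusp7 overlapped. In mdx the order was Dusp1 (214.29), Dusp6 (78.07), Dusp10 (68.05), Dusp16 (28.34), Dusp4 (25.91), Dusp5 (15.37), Dusp7 (10.88), Dusp14 (8.48), Dusp8 (3.70) and Dusp2 (3.0), with overlapping ranges for Dusp6 and Dusp10, for Dusp16 and Dusp4, for Dusp5, Dusp7 and Dusp14, for Dusp14 and Dusp8, and for Dusp8 and Dusp2. Dusp8 thus went from rank 3 in both control libraries to rank 9 in both mdx libraries. In those labelled Sirt6mKO/mdx it was at rank 6 in both, and the order by mean level per kilobase was Dusp1 (1474.18), Dusp10 (211.21), Dusp5 (93.81), Dusp6 (92.75), Dusp4 (52.74), Dusp8 (52.36), Dusp16 (46.68), Dusp2 (12.23), Dusp7 (9.09) and Dusp14 (7.71). The ranges of Dusp5 and Dusp6, those of Dusp4, Dusp8 and Dusp16, and those of Dusp7 and Dusp14 overlapped there. The summed level per kilobase of the 10 members was 1996.2 and 1457.1 in control, then 478.6 and 433.6 in mdx, then 2350.3 and 1755.2 in the Sirt6mKO/mdx-labelled libraries. Without Dusp1 these sums were 517.2 and 518.4, then 231.2 and 252.3, then 565.3 and 591.8.

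**Figure D1:**
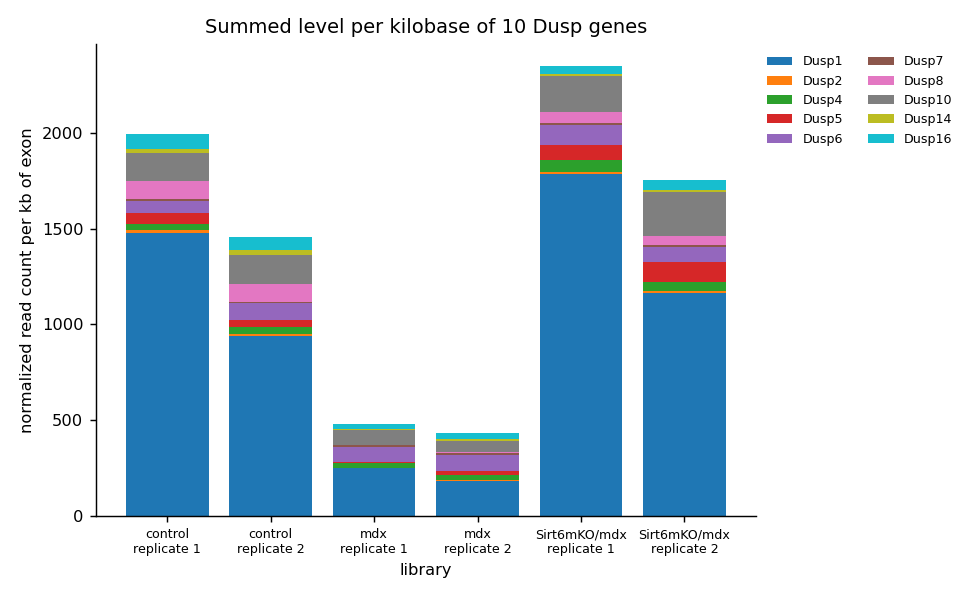
Normalized read count per kilobase of exon for each of 10 Dusp genes, stacked, in each of 6 libraries. Each bar is a library and each colour a gene; the mdx bars end at 478.6 and 433.6, below the other 4 bars, and Dusp1 takes the largest part of every bar.

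To ask how dystrophic MuSCs differ from healthy ones, mdx was compared with control. In mdx, 5 of 10 members were called lower (Dusp1, Dusp5, Dusp8, Dusp10 and Dusp16) and 0 were called higher. Among all 15915 tested genes, 7.34% were called lower and 6.89% higher. A gene was called when its adjusted p (limma, Benjamini-Hochberg over all tested genes, two-sided) was at most 0.05 and its fold change at least 2. All 10 members passed the minimum mean of 5 needed for testing. The median log2 fold change of the members was -1.48, beside 0.00 over all tested genes. Values of the 2 groups were fully apart for 8 of 10 members, without overlap, beside 57% of all tested genes, all 8 being lower in mdx.

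Among the nuclear, inducible enzymes, Dusp1 (ENSMUSG00000024190; GRCm38 chromosome 17, 26505590 to 26508519) had 4897 and 3108 in control, compared with 819 and 600 in mdx. Both mdx libraries lay far below both control libraries. The mean fell from 4002.5 ± 1265 to 709.5 ± 155 (SD, n = 2 in each), a log2 fold change of -2.48 (SE 0.32; limma adjusted p = 0.000105). Dusp5 (ENSMUSG00000034765; chromosome 19, 53529109 to 53542431), a nuclear phosphatase specific for ERK, had 144 and 92 in control, compared with 16 and 60 in mdx. The mdx libraries were lower, and by ratio they differed more from each other than those of any other called member. Its log2 fold change was -1.85 (SE 0.49; limma adjusted p = 0.019). This call was lost without control replicate 1 (-1.53), without mdx replicate 1 (-0.93; -2.77 without mdx replicate 2) and, by adjusted p alone (0.058 and 0.0621), without either library labelled Sirt6mKO/mdx, which enter the same fit. On the opposite strand, the unmeasured gene AC137853.2 shares 547 of the 2473 exonic bases of Dusp5, and the use of strand in the counting was not stated. Dusp2 (26 and 21 in control, 5 and 7 in mdx) and Dusp4 (89 and 102 in control, 73 and 69 in mdx) were lower in both mdx libraries without passing the test. Their log2 fold changes were -1.81 (SE 0.69; limma adjusted p = 0.084) and -0.42 (95% interval -1.15 to 0.31). Dusp2 rested on 8 and 9 approximate reads in the mdx libraries, so its depth allows little precision.

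The JNK- and p38-directed enzymes were all called lower. Dusp8 (ENSMUSG00000037887; chromosome 7, 142079490 to 142095843) had 447 and 450 in control, compared with 17 and 19 in mdx. For Dusp8 and Dusp1 the opposite-strand overlaps were short, with 66 exonic bases shared by Gm32786 and Dusp8 and 11 by Ergic1 and Dusp1. The libraries of each group nearly coincided, and the mdx mean of 18 was 4.01% of the control mean of 448.5. Its log2 fold change was -4.57 (SE 0.31; limma adjusted p = 2.78e-07), rank 12 of 15915 tested genes by p. The 95% interval of Dusp8, -5.22 to -3.91, did not overlap the intervals of any other member. Dusp16 (ENSMUSG00000030203; chromosome 6, 134715473 to 134792625), which shuttles between nucleus and cytoplasm, had 625 and 510 in control, compared with 195 and 247 in mdx. It fell by 1.36 on the log2 scale (SE 0.26; limma adjusted p = 0.00272). Dusp10 (ENSMUSG00000039384; chromosome 1, 184013302 to 184075636) had 459 and 456 in control, compared with 242 and 172 in mdx. Its log2 fold change was -1.16 (SE 0.26; limma adjusted p = 0.00707). The call of Dusp16 was lost without mdx replicate 1 (-1.19) and that of Dusp10 without mdx replicate 2 (-0.92). Without mdx replicate 1 the number of members called lower was 3 instead of 5, and the share of all tested genes called lower was 4.13%. With 1 prior variance for all genes, Dusp1 and Dusp8 stayed called, Dusp5, Dusp10 and Dusp16 did not (limma adjusted p = 0.153, 0.0961 and 0.0765), and Dusp2 was called (0.048), while 2.26% of all tested genes were called lower.

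The ERK-directed cytoplasmic enzymes did not pass the test in either direction. Dusp6 (ENSMUSG00000019960; chromosome 10, 99263231 to 99267488) had 199 and 272 in control, compared with 235 and 254 in mdx, so the mdx values lay within the control range. Its log2 fold change was 0.07 with a 95% interval of -0.52 to 0.66, which leaves out a fall of 2-fold. Dusp7 (ENSMUSG00000053716) had 36 and 29 in control, compared with 30 and 43 in mdx, with a wider interval of -0.97 to 1.27 around 0.15. The atypical member Dusp14 (ENSMUSG00000018648) had 32 and 59 in control, compared with 7 and 26 in mdx. Its groups did not overlap, but its log2 fold change of -1.60 (SE 0.71; limma adjusted p = 0.137) was not called. Leaving out mdx replicate 1 gave -0.72 and leaving out mdx replicate 2 gave -2.48.

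**Figure D2:**
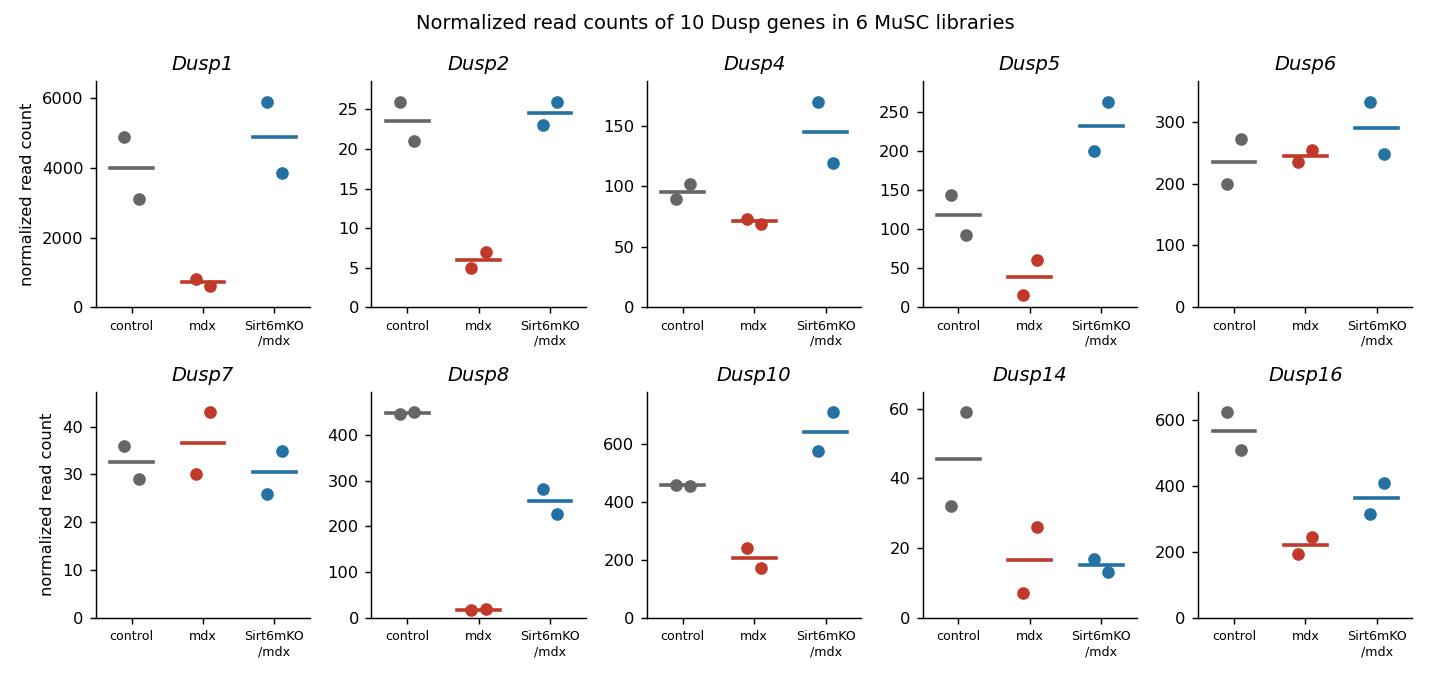
Normalized read counts (linear axes from 0, a separate scale for each gene) of 10 Dusp genes. Points are libraries and horizontal lines are group means (n = 2); for Dusp8 the mdx points at 17 and 19 lie near the axis while control is at 447 and 450, and for Dusp6 the 3 groups overlap.

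To ask how the groups of dystrophic MuSCs differ, the Sirt6mKO/mdx-labelled libraries were compared with mdx. This comparison shares the mdx libraries with the one above, so a low mdx value enters both. Here 4 of 10 members were called higher (Dusp1, Dusp5, Dusp8 and Dusp10) and 0 lower, where 5.62% of all tested genes were called higher and 2.54% lower. The median log2 fold change was 1.32 for the members and 0.02 for all tested genes. For 7 of 10 members the groups were without overlap, beside 56% of all tested genes, and all 7 were higher in the Sirt6mKO/mdx-labelled libraries. With every library scaled to the same total, 3.01% of all tested genes were called higher and 18.4% lower, and 4 members were called higher and 0 lower.

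Dusp8 was at 283 and 227 in the Sirt6mKO/mdx-labelled libraries against 17 and 19 in mdx. The log2 fold change of 3.75 (SE 0.31; limma adjusted p = 3.81e-06) was the largest among the members. Dusp5 was at 200 and 264 against 16 and 60, which gave a log2 fold change of 2.84 (SE 0.49; limma adjusted p = 0.00258). Leaving out mdx replicate 1 gave 1.92 and leaving out mdx replicate 2 gave 3.76, both called. Both Dusp5 values were above every other Dusp5 value of the series. Dusp1 was at 5910 and 3852 against 819 and 600, with a log2 fold change of 2.77 (SE 0.32; limma adjusted p = 8.17e-05). Dusp10 was at 576 and 709 against 242 and 172, and rose by 1.64 on the log2 scale (SE 0.26; limma adjusted p = 0.00119). These were again the highest values of the gene in the series. Without Sirt6mKO/mdx replicate 2 the calls of Dusp5 (2.64) and Dusp10 (1.49) were lost, leaving 2 members called higher beside 1.26% of all tested genes; without Sirt6mKO/mdx replicate 1 that of Dusp5 (3.04) was lost. With 1 prior variance for all genes, 0 members and 0 of all tested genes were called here in limma. An unadjusted p under 0.05 was found for 6 members, beside 19.8% of all tested genes.

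For Dusp2, the Sirt6mKO/mdx-labelled libraries were at 23 and 26 against 5 and 7, and its log2 fold change of 1.88 (SE 0.69; limma adjusted p = 0.102) was not called. Dusp4, whose product is a nuclear relative of that of Dusp1, was at 170 and 119 against 73 and 69, with a log2 fold change of 0.99 (SE 0.34; limma adjusted p = 0.0853). Dusp16 was at 317 and 411 against 195 and 247, with 0.72 (SE 0.26; limma adjusted p = 0.103). For all 3 genes both values lay above both mdx values, without passing the test. With every library scaled to the same total, the log2 fold changes were 0.37 for Dusp4 and 0.09 for Dusp16, and the median of all tested genes was -0.58. Dusp6 was at 333 and 248 (log2 fold change 0.23, 95% interval -0.36 to 0.82) and Dusp7 at 26 and 35 (-0.24, -1.36 to 0.88), and both overlapped mdx. Dusp14 was at 17 and 13, between the mdx values of 7 and 26, with an interval of -1.39 to 1.62.

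**Figure D3:**
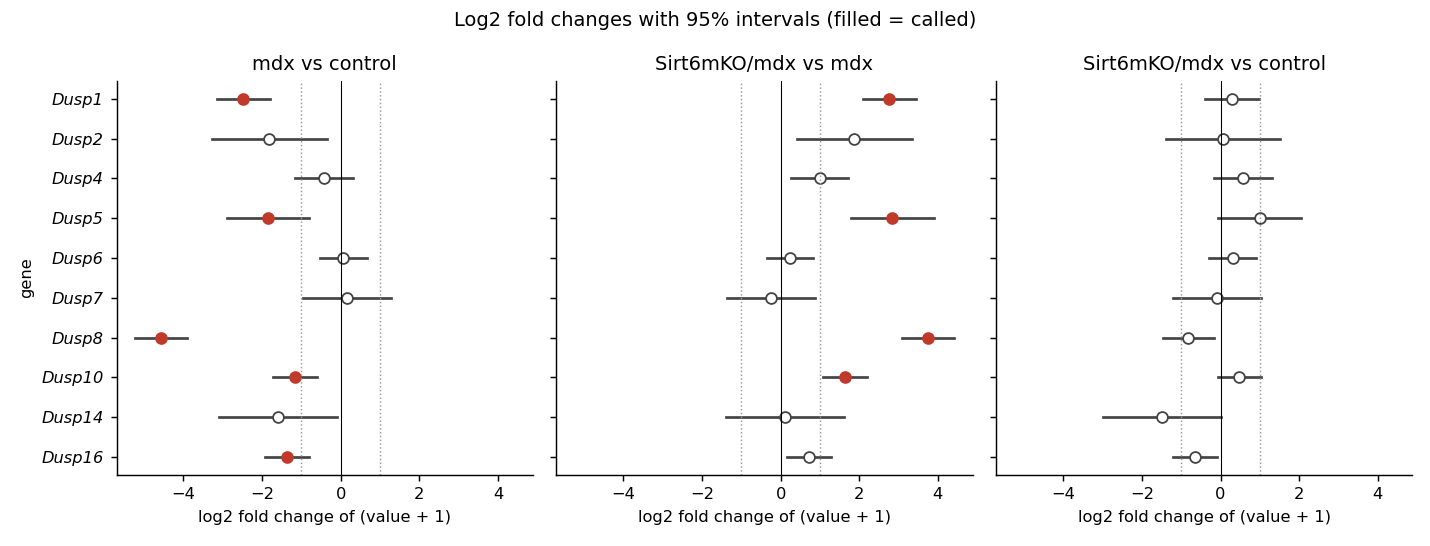
Log2 fold changes of log2(value + 1) with 95% intervals for 10 Dusp genes in 3 comparisons. Filled points are called genes and dotted lines mark a 2-fold change; Dusp8 lies at -4.57 in mdx against control and at 3.75 in the Sirt6mKO/mdx-labelled libraries against mdx, and 0 points are filled in the third panel.

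The Sirt6mKO/mdx-labelled libraries were also compared with control. In limma, 0 of 10 members were called in either direction, where 5.19% of all tested genes were called higher and 2.68% lower. Voom weights also gave 0. An unadjusted p under 0.05 was found for 2 members (Dusp8 and Dusp16, both lower) where 24.1% of all tested genes had such a p, and for 3 with voom weights, where 22.1% had. For 6 of 10 members the groups did not overlap, beside 51.6% of all tested genes. Dusp8, at 283 and 227 against 447 and 450, had a mean of 56.9% of control (log2 fold change -0.82, SE 0.31; limma adjusted p = 0.114). Dusp16, at 317 and 411 against 625 and 510, had a log2 fold change of -0.64 (SE 0.26; limma adjusted p = 0.147). Both had values between those of mdx and control. Dusp14 was at 17 and 13 against 32 and 59 (-1.49, 95% interval -2.99 to 0.02). Dusp4, Dusp5 and Dusp10 lay above control in both libraries, with log2 fold changes of 0.57, 0.99 and 0.48 and adjusted p of 0.331, 0.236 and 0.278 (limma). For Dusp1 (0.29, 95% interval -0.39 to 0.97), Dusp2 (0.06, -1.40 to 1.52), Dusp6 (0.30, -0.29 to 0.90) and Dusp7 (-0.10, -1.22 to 1.02) the groups overlapped. When all libraries were scaled to the same total, the median of all tested genes in this comparison moved to -0.58. Dusp8 (-1.42), Dusp14 (-2.06) and Dusp16 (-1.25) were then called lower, each below that shift, while the same scaling called 16.9% of all tested genes lower.

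**Figure D4:**
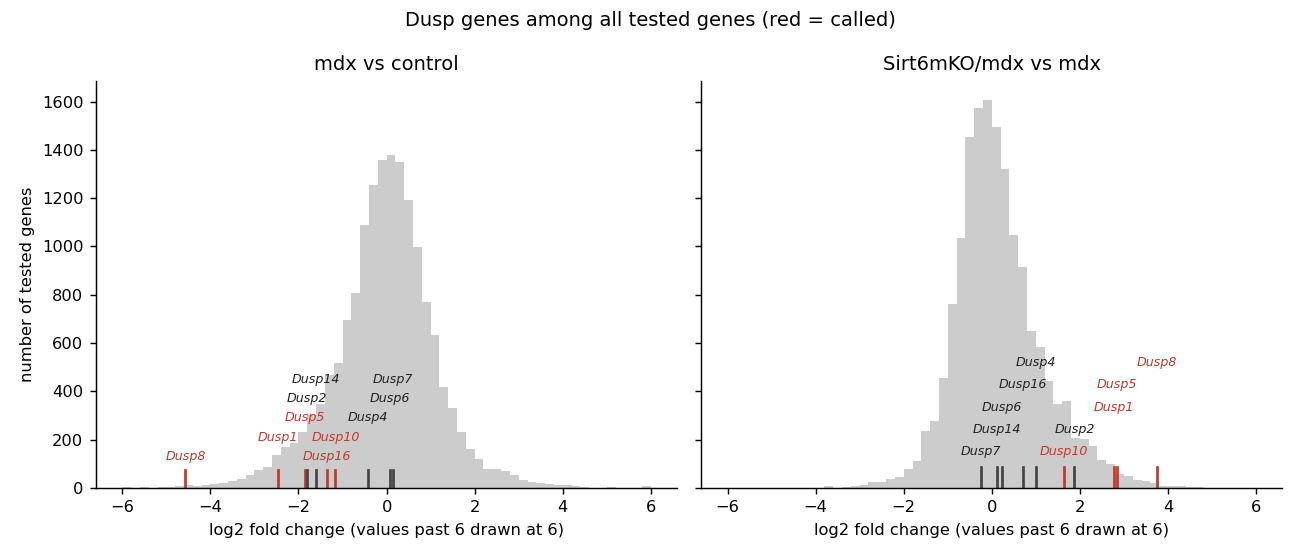
Number of tested genes by log2 fold change (bins of equal width, values past 6 drawn at 6) in 2 comparisons, with the 10 Dusp genes marked. Red marks are called members; in mdx against control Dusp8 at -4.57 lies in the far left tail and Dusp6 at 0.07 near the centre.

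Profiles over the 6 libraries were also compared. For each called member, the tested gene with a mean of at least 50 and the smallest Euclidean distance between centred log2 profiles over the 6 libraries was taken from 9666 genes. For Dusp8 this was Maff (distance 0.52), a small MAF transcription factor, at 1799 and 1961 in control, then 109 and 98 in mdx, then 1153 and 1156 in the Sirt6mKO/mdx-labelled libraries. For Dusp16 it was Mtfr2 (0.20), at 148 and 119, then 40 and 51, then 65 and 87. Dusp5 was nearest to Rec8 (0.54), a meiotic cohesin subunit, which also differed between the mdx libraries (6 and 30). Dusp1 was nearest to AB041803 (0.47) and Dusp10 to 9430023L20Rik (0.36). Among the members themselves the smallest distance was that of Dusp4 and Dusp6 (0.80). This distance grows with the size of the changes. Pearson's r of the same profiles, which leaves out size, was 0.68 for that pair, and it was highest for Dusp2 and Dusp8 (0.96), Dusp1 and Dusp2 (0.95) and Dusp1 and Dusp8 (0.94). These values describe 6 libraries in 3 groups that all genes share.

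MAP kinases are the family that holds the substrates of these phosphatases. Of 11 tested, 0 were called in mdx against control, where 7.34% of all tested genes were called lower and 6.89% higher. Mapk10 (JNK3), at 74 and 58 against 187 and 229, was the 1 called, lower, in the Sirt6mKO/mdx-labelled libraries against mdx (-1.64, limma adjusted p = 0.01), where 2.54% of all tested genes were called lower. Of 7 MAP kinase kinases, Map2k3, which activates p38, was called lower in mdx (523 and 497 against 144 and 210; log2 fold change -1.55) and higher in the Sirt6mKO/mdx-labelled libraries (316 and 400; 1.03). Of 20 RAS proteins and MAP3 kinases, 4 were called lower in mdx and 4 were called higher in the Sirt6mKO/mdx-labelled libraries. Map3k6 and Map3k8, the latter an activator of ERK signalling, had the largest changes in mdx, with log2 fold changes of -2.87 and -2.78, and 1.85 and 2.65 in the Sirt6mKO/mdx-labelled libraries. The 13 tested other dual-specificity phosphatases had 0 calls in both comparisons with mdx, at a median log2 fold change of 0.14 in mdx against control and 0.41 in the Sirt6mKO/mdx-labelled libraries against mdx, and Dusp3 was called lower in the Sirt6mKO/mdx-labelled libraries against control (-1.17). Of 5 tested MAPK phosphatases of other families, Ppm1b was called lower in mdx (-1.07).

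Downstream of the kinases, 2 of 11 MAPK-activated kinases were called lower in mdx, Mknk2 (-2.25) and Rps6ka5 (-1.53), and Mknk2 was called higher in the Sirt6mKO/mdx-labelled libraries (2.01). Among the Sprouty and SPRED genes, which restrain RAS and ERK signalling, 3 of 6 were called lower in mdx: Spry4 (-2.05), Spred3 (-1.76) and Spry2 (-1.08). Spred3 alone of these 6 was called higher in the Sirt6mKO/mdx-labelled libraries (1.66). Of 9 ETS and SRF factors, Ets2 (-3.02) and Ets1 (-1.32) were called lower in mdx, and Ets2 higher in the Sirt6mKO/mdx-labelled libraries (1.41). All 13 immediate early factors, which MAP kinases induce, were called lower in mdx and higher in the Sirt6mKO/mdx-labelled libraries. Atf3 (-5.42 and 4.07) and Nr4a1 (-4.96 and 4.17) had the largest values of that list. In the Sirt6mKO/mdx-labelled libraries against control, Spry4 (-1.165), Ets2 (-1.607), Elk3 (-1.282) and Atf3 (-1.353) were called lower. No other gene of these lists was called there, where 2.68% of all tested genes were called lower. The median log2 fold changes in mdx against control, beside 0.00 over all tested genes, were 0.10 for MAP kinases, 0.27 for MAP kinase kinases, -0.56 for RAS proteins and MAP3 kinases, -0.52 for MAPK-activated kinases, -0.90 for Sprouty and SPRED genes, -0.61 for ETS and SRF factors and -2.85 for immediate early factors. In the Sirt6mKO/mdx-labelled libraries against mdx, beside 0.02 over all tested genes, they were in the same order -0.21, -0.10, 0.31, 0.13, 0.53, 0.14 and 2.44.

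**Figure D5:**
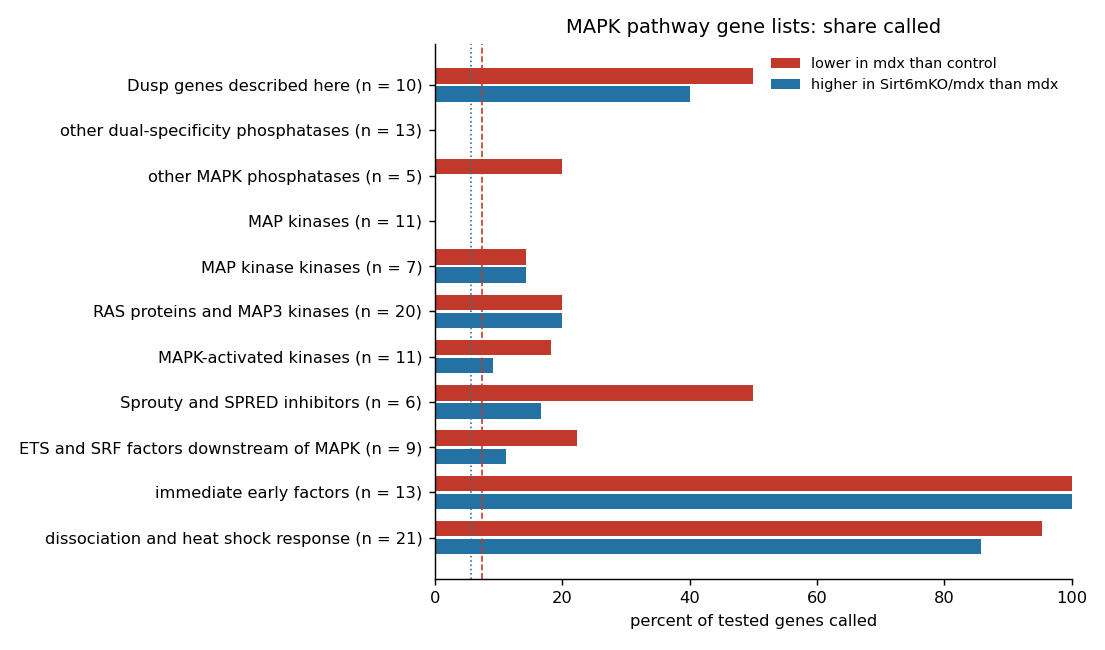
Percent of tested genes of each list called lower in mdx than in control (red) and called higher in the Sirt6mKO/mdx-labelled libraries than in mdx (blue). The dashed and dotted lines mark the shares of all tested genes, 7.34% and 5.62%; the bars of the Dusp genes reach 5 of 10 and 4 of 10, and MAP kinases have no bar.

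Other signals moved with the same groups. Of 21 dissociation and heat shock response genes, 20 were called lower in mdx and 18 higher in the Sirt6mKO/mdx-labelled libraries. Their summed normalized read count was 226006 and 276088 in control, then 37277 and 40202 in mdx, then 157444 and 167247 in the Sirt6mKO/mdx-labelled libraries. Their part in the Dusp results was not tested. Of 7 myofibre markers, 4 were called lower in mdx and 3 higher in the Sirt6mKO/mdx-labelled libraries, with sums of 18810 and 39742, 13519 and 11985, and 31296 and 23906, and none was at 0. Of 5 tested endothelial markers, 2 were called lower in mdx (Kdr and Pecam1), with sums of all 6 of 759 to 908 in control, 406 to 412 in mdx and 610 to 635 in the Sirt6mKO/mdx-labelled libraries. Emcn was at 0 in both libraries labelled Sirt6mKO/mdx and Kdr in mdx replicate 2. Of 6 fibro-adipogenic markers, 2 were called higher in mdx (Col1a1 and Ly6a) and Col1a1 was called lower in the Sirt6mKO/mdx-labelled libraries than in mdx (-1.08), with sums of 18184 to 25059 in control, 29787 to 35506 in mdx and 19251 to 26768 in the Sirt6mKO/mdx-labelled libraries, and none was at 0. Col3a1 made up most of each sum. Pdgfra, which defines these cells, was between 15 and 59 in control and differed between libraries of a group, with 195 and 18 in mdx and 142 and 19 under the Sirt6mKO/mdx label. Ly6a and Lum were likewise higher in replicate 1 of both mdx groups. The leukocyte markers summed to between 80 and 182 in all libraries, with Ptprc at 0 in both control libraries, and the erythroid markers to between 7 and 91. Calls within these lists went in different directions. Lyz2 was called higher in mdx than in control (3.22) and higher in the Sirt6mKO/mdx-labelled libraries than in control (3.75), Cd68 was called lower in mdx (-1.60), and Hbb-bs, a haemoglobin gene, was called higher in the Sirt6mKO/mdx-labelled libraries than in mdx (3.39). The sort described in the methods depletes cells with Sca1, CD45 and CD31, which are encoded by Ly6a, Ptprc and Pecam1 of these lists. Smooth muscle and pericyte markers had 1 call of 6 (Acta2, higher in mdx) and Schwann markers 0 of 3, with sums of 4545 to 6787 and of 23 to 73. Of 6 proliferation genes, 4 were called higher in mdx and 3 lower in the Sirt6mKO/mdx-labelled libraries, with Top2a at 2.73 and -1.60. The part of these signals in the Dusp results was not tested. In sorted bulk cells, fewer cells that express a gene and less RNA per cell cannot be told apart.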

How the data were processed

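MuSCs were sorted by FACS from digested limb and trunk muscle, and rRNA-depleted total RNA was sequenced by Ion Torrent, per the labels and the study's methods. Trimming used Reaper, alignment STAR on GRCm38 and counting per gene featureCounts 1.4.5-p1, which skipped reads on several genes or places. The methods describe depletion of Sca1+, CD45+ and CD31+ cells and then sorting of Integrin-a7+/CD34+, GFP+ or YFP+ cells. Which of these 3 gates served for RNA-seq, and the use of strand, are not given in the sources used here. The deposited values are a score, namely whole numbers that the authors obtained by dividing read counts by DESeq2 size factors and rounding. Size factors of 0.5373 to 1.5268 were recovered from skipped and doubled whole numbers and give approximate reads only.

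Because the deposited score is not a raw count, the 15915 genes with a mean of at least 5 were tested on log2(value + 1) by limma 3.58.1 (R 4.3.3), with all 6 libraries in 1 fit, a prior variance that follows the mean and no block. Fold changes understate those of low genes. On simulated mdx and control values for 15915 genes it recovered 1 of 75 genes changed 2-fold, 42 of 69 changed 4-fold and 52 of 56 changed 8-fold, with 3 calls of unchanged genes. Far fewer genes were changed in this simulation than were called in the data, and every gene had the same spread beyond counting noise. A gene changed exactly 2-fold sat at the fold cutoff of a call. These rates therefore do not carry over to the real comparisons. Levels per kilobase used all exonic bases of GENCODE release M21, which held 98.5% of the gene identifiers. Intervals cover 95%. All 10 members were named in every comparison, as were the gene nearest in profile to each called member and up to 3 called genes of each list. Pathway lists outside the members were described by counts of calls and medians. The members and lists were chosen with earlier results of these data known.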

Additional observations from a re-analysis of the deposited data

How the results depend on the processing

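The counts of 5 members called lower in mdx and 4 called higher in the Sirt6mKO/mdx-labelled libraries than in mdx stayed within 1.5 times under both pseudocounts, both other minimum means, scaling by upper quartile, the robust prior, voom weights and a call on adjusted p alone. Under both pseudocounts, upper quartile scaling, the robust prior and voom weights, 6.86% to 7.89% of all tested genes were called lower in mdx. The share called higher in the Sirt6mKO/mdx-labelled libraries than in mdx was 4.82% to 5.97% there. With a minimum mean of 50 the counts of members were 5 and 4, beside 9.98% and 8.43% of all genes tested. Without a minimum mean they were 4 and 3, beside 2.54% and 0.685% of all genes tested. With the replicate block they were 5 and 4 as well, beside 7.84% and 6.6% of all tested genes, and the comparison with control kept 0, beside 5.87% higher and 2.95% lower. Same-numbered libraries deviated with r = -0.128 (mdx and control), 0.009 and 0.119, so the numbers were not taken as pairs. With 1 prior variance for all genes, 3 members were called lower in mdx (Dusp1, Dusp8 and Dusp2, so 2 of the 5; 2.26% of all tested genes) and 0 higher in the Sirt6mKO/mdx-labelled libraries. In limma that setting called 0 of all 15915 genes in the latter comparison, although 3156 genes and 6 members had an unadjusted p under 0.05. Leaving out each library gave 3 to 5 members called lower in mdx and 2 to 4 called higher in the Sirt6mKO/mdx-labelled libraries, while the shares of all tested genes called were 4.13% to 7.31% and 1.14% to 6.26%. Scaling to the same total moved the median of all genes by -0.606 (against mdx) and -0.585 (against control) in the Sirt6mKO/mdx-labelled libraries, and called 3 members and 16.9% of all tested genes lower against control (18.4% of all genes against mdx). Under it Dusp6 (-0.39) and Dusp14 (-0.47) turned negative against mdx, and Dusp1 (-0.32), Dusp2 (-0.52), Dusp4 (-0.027), Dusp6 (-0.30) and Dusp10 (-0.12) against control. Other changes of sign came from leaving out a library, in members that were not called. In mdx against control the values ranged from -0.15 to 0.29 for Dusp6 and -0.10 to 0.40 for Dusp7. In the Sirt6mKO/mdx-labelled libraries against mdx they ranged from -0.497 to 0.008 for Dusp7 and -0.77 to 0.99 for Dusp14. Against control they ranged from -0.038 to 0.618 for Dusp1, -0.085 to 0.21 for Dusp2 and -0.30 to 0.11 for Dusp7. A group left with 1 library was assumed to vary like the others. Without a minimum mean Dusp5 was not called (adjusted p = 0.134 and 0.101). With the longest transcript in place of all exonic bases, Dusp1 kept rank 1 by level per kilobase in each group. In control Dusp8 went from rank 3 to 4, Dusp6 from 4 to 5 and Dusp16 from 5 to 3, and in the Sirt6mKO/mdx-labelled libraries Dusp5 and Dusp6 (ranks 3 and 4) changed places, as did Dusp7 and Dusp14 (9 and 10), Dusp16 went from 7 to 5 and Dusp4 from 5 to 7. Ranks in mdx did not change. The cause of these changes was not tested.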
